A study of Arabidopsis with 12 samples.

Results

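The effect of the Fe label in wild-type seedlings of Arabidopsis thaliana was read from 6 of the 12 RNA sequencing libraries of the series, 3 wild-type libraries labelled -Fe and 3 labelled +Fe. The loci described are those with 1 FPKM or more (mapped fragments scaled by transcript length and by the mapped total of the library) in at least 3 of these 6 libraries, which were 19642 of the 28693 loci in the expression table. The wild type was the accession Col-0. Seedlings were germinated on agar with Murashige and Skoog medium and then kept for 7 d on a complete solid medium lacking Fe (labelled -Fe) or on the complete medium itself (labelled +Fe), and all grew at 24 °C with 16 h of light, at 140 µmol photons per m2 and s, and 8 h of dark. The other 6 libraries come from pad4, a mutant of the lipase-like defence regulator PAD4, under the same labels (3 labelled -Fe and 3 labelled +Fe). They served to test where the effect of the label in pad4 differed from that in the wild type.

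Plants that run short of Fe switch on a cascade of basic helix-loop-helix (bHLH) factors, in which ILR3 and its relatives raise the Ib bHLH factors bHLH38, bHLH39, bHLH100 and bHLH101, and the E3 ligase BTS holds the cascade back. The cascade feeds the ferric reductases, the transporters and the nicotianamine synthases that take up and move Fe. When Fe is ample, these genes are low and ferritins, which store Fe in plastids, are made instead, since free Fe drives the formation of reactive oxygen species. Most leaf Fe sits in the photosynthetic apparatus, in heme enzymes and in iron-sulfur (Fe-S) clusters.

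Marker genes of Fe status ran against the labels in the wild-type libraries. Genes known to be induced when Fe is short were high in the libraries labelled +Fe, and ferritin genes were high in those labelled -Fe, as the values below give gene by gene. The labels are kept as deposited, FIT below is an exception to this pattern, and every "higher" or "lower" below is a direction between labels. The genotype label was checked on PAD4, whose range was 10.3 to 13.6 FPKM over the pad4 libraries (6) and 18.1 to 22.0 FPKM over the wild-type ones (6). The labels disagree on the tissue, which is given as shoot, as leaves and roots, and as seedlings. Of 21 root marker genes, 19 stayed under 3 FPKM in all 6 wild-type libraries. Apart from SCR and SHR, which leaves also express, their summed level was 5.64, 5.02 and 7.00 FPKM in libraries labelled -Fe and 7.11, 6.33 and 7.37 FPKM in libraries labelled +Fe. Single root markers moved in opposite ways. CASP4, a protein of the endodermal barrier, had 0.374, 0 and 0.284 FPKM in libraries labelled -Fe and 2.28, 2.27 and 2.47 FPKM in libraries labelled +Fe (log2 difference -1.47, adjusted p = 3.70e-05). WOX5, a factor of the root stem cell niche, had 1.62, 1.72 and 2.03 FPKM in libraries labelled -Fe and 0.867, 0.42 and 0.668 FPKM in libraries labelled +Fe (0.76, adjusted p = 0.0111), a call lost without both libraries numbered 2 (0.68, adjusted p = 0.0669). The root hair marker PRP3 had 0.555, 0.785 and 1.08 FPKM in libraries labelled -Fe and, like RSL4 and EXPA7, was listed at 0 in all 3 libraries labelled +Fe. What part root tissue has in the values of root genes given below, FIT, FRO2, IRT1 and MYB72 among them, was not tested. Of 13 seed storage and oleosin genes, 3 were tested, and of these 1 was higher and 2 were lower in libraries labelled -Fe. Their median level was 0 in libraries labelled -Fe and 3.67 to 3.87 FPKM in libraries labelled +Fe. A gene at 0 under 1 label passes the filter only through its level under the other, so that the filter itself favours such a contrast.

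Summed FPKM ranged from 894824 to 968825 over the wild-type libraries, with 19196 to 19236 loci at 1 FPKM or more in each. No read totals were given. Depth relative to +Fe library 1, read from the lowest values, was 0.66, 0.78 and 0.84 in the libraries labelled -Fe and 1.00, 0.76 and 0.82 in those labelled +Fe. Libraries of a group correlated at r = 0.980 to 0.992 across loci, which are not independent replicates. Principal component 1 (81.8% of the variance) separated the labels, and component 2 (9.6%) set library 2 of each label apart from the other two. Whether the replicates were separate cultures is not labelled, so that p-values reflect only how these samples vary, which may be technical. In such bulk samples, fewer cells of a type and less RNA per cell cannot be told apart.

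At an adjusted p under 0.05 (limma on log2(FPKM + 1), Benjamini-Hochberg over all loci tested), 10312 loci were called, or 52.5% of those tested. Of these, 4998 (25.4%) were higher in libraries labelled -Fe and 5314 (27.1%) were lower. The larger side turned under 2 scalings: quantile normalization gave 5527 higher and 4965 lower, and median-ratio scaling 5353 higher and 5022 lower. With a difference of at least 1 log2 unit as well, 2345 loci (11.9%) were called, 1066 higher (5.43%) and 1279 lower (6.51%). The 3 and 3 libraries did not overlap at 11759 loci (59.9%). Since about every second locus was called, the counts below are set against these shares and against the median log2 difference over all loci, which was -0.02 with quartiles at -0.35 and 0.32. In the authors' deposited table for the same groups, 3232 loci are marked as changed, 1593 higher and 1639 lower in the libraries labelled -Fe. Loci marked as changed in the authors' deposited table differ there by at least 1 log2 unit. Of the 2957 of them tested here, 2922 (98.8%) were called by adjusted p alone, and 73.6% were called at 1 log2 unit or more. Of the 2345 loci called here at 1 log2 unit or more, 2175 (92.8%) are marked as changed in the authors' deposited table, and none has the opposite sign there. Of the 124 genes named here that were called at that size, 11 are not marked as changed in the authors' deposited table: bHLH38 (q = 0.128), bHLH39 (q = 0.222), bHLH101 (q = 0.0868), NAS2 (q = 0.181), NEET (q = 0.352), VTL5 (q = 0.205), MT1A (q = 0.0556), MT1B (q = 0.187), CASP4 (q = 0.0891), AT2G36885 (q = 0.276) and AT1G68650 (q = 0.307).

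**Figure D1:**
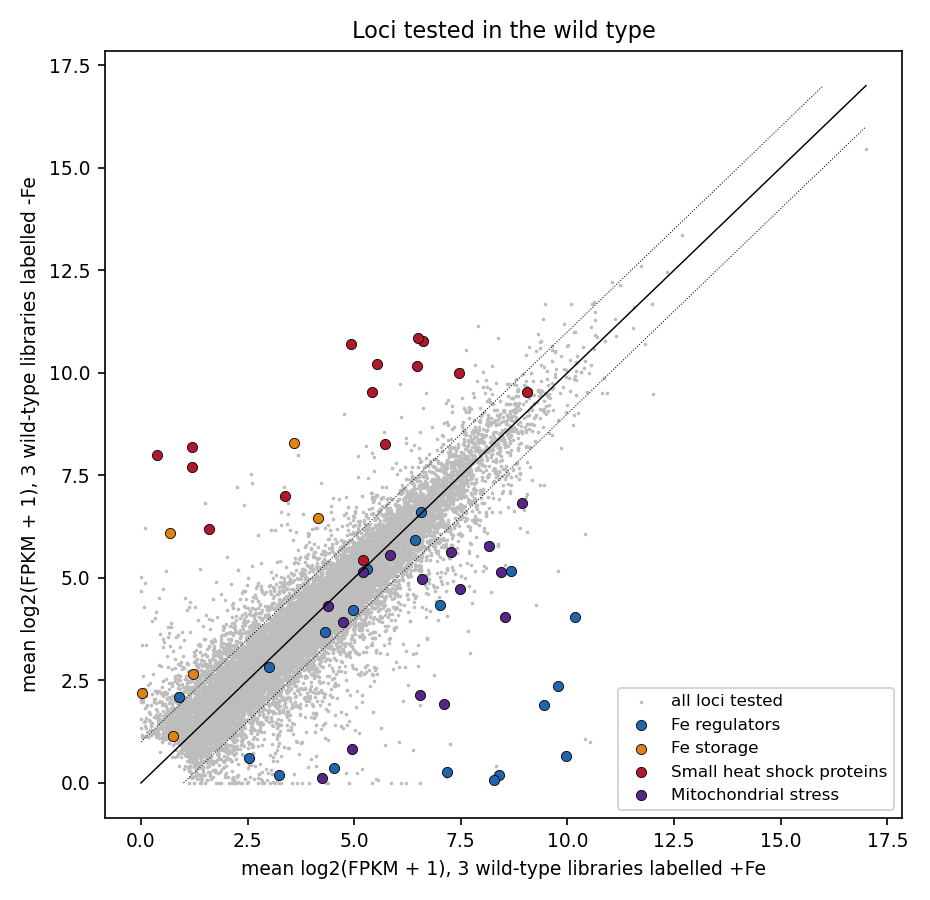
Mean log2(FPKM + 1) of each of the 19642 loci in the 3 wild-type libraries labelled -Fe (vertical axis) against the 3 labelled +Fe (horizontal axis); the solid line marks equal levels and the dotted lines a difference of 1 log2 unit. Most Fe regulators and mitochondrial stress genes lie far below the line, and Fe storage genes and small heat shock proteins far above it, up to a log2 difference of 7.61.

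The largest differences were falls. At 44 loci the level in libraries labelled -Fe was lower by 4 log2 units or more, and at 27 loci it was higher by as much. Only 15 of the 44 hold a single gene with a symbol in RefSeq, against 18 of the 27. The other 29 falls include 4 loci without a gene name, and also genes named below, IMA1 and SMR5 among them. The deepest fall was at a locus that merges 3 neighbouring genes, AT1G13607, AT1G13608 and AT1G13609 (TAIR10 chromosome 1, 4660618 to 4663493). It held 2.07, 0.466 and 0.783 FPKM in libraries labelled -Fe, against 1352, 1909 and 1244 FPKM in libraries labelled +Fe. Its log2 difference was -9.53 (SE 0.24, adjusted p = 1.01e-10).

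AT2G14247 (chromosome 2, 6034348 to 6034835), which the deposited tables leave without a description, came next. It had 0.293, 2.88 and 0.886 FPKM in libraries labelled -Fe, against 1271, 1591 and 1252 FPKM in libraries labelled +Fe. The difference was -9.33 (SE 0.29, adjusted p = 5.43e-10), close to the -9.31 of bHLH100 given below. AT1G12030 and AT1G62420, which share the annotation of a plant-specific domain family (TIGR01615), fell by 7.92 and 6.28 log2 units. AT1G12030 had 0.617, 0.0666 and 0.373 FPKM in libraries labelled -Fe and 303, 355 and 311 FPKM in libraries labelled +Fe. AT4G36700 (chromosome 4, 17298200 to 17300367), annotated as a cupin domain protein, had 0.144, 0.0907 and 0.058 FPKM in libraries labelled -Fe and 140, 138 and 145 FPKM in libraries labelled +Fe. Its fall was smaller in pad4, with a log2 difference of -5.12 in pad4 and -7.02 in the wild type (difference 1.90, adjusted p = 3.81e-06).

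Among genes without a symbol that rose, AT2G36885 (chromosome 2, 15482003 to 15483711) had 28.0, 29.0 and 28.0 FPKM in libraries labelled -Fe and 0, 0.0791 and 0.141 FPKM in libraries labelled +Fe. AT1G68650 (chromosome 1, 25775741 to 25779161), annotated with an uncharacterized UPF0016 domain, had 18.4, 17.4 and 20.3 FPKM in libraries labelled -Fe, and in libraries labelled +Fe it was listed at 0 in 2 libraries and at 0.155 FPKM in the third. Both were close to undetected under 1 label and clearly measured under the other, with log2 differences of 4.77 (SE 0.09, adjusted p = 7.85e-12) and 4.23 (SE 0.12, adjusted p = 2.01e-10).

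Among 19 Fe regulators tested, 15 were lower and 1 was higher in libraries labelled -Fe, with a median log2 difference of -3.03. The Ib factors were close to undetected there. bHLH100 (AT2G41240, chromosome 2, 17198282 to 17199320) had 0.666, 0.647 and 0.42 FPKM in libraries labelled -Fe and 976, 1033 and 982 FPKM in libraries labelled +Fe. Its log2 difference was -9.31 (SE 0.12, adjusted p = 9.70e-13), and bHLH38, bHLH39 and bHLH101 differed by -8.21, -8.20 and -6.92. IMA1 (AT1G47400), which encodes a peptide that promotes Fe uptake, had 2.79, 1.88 and 3.79 FPKM in libraries labelled -Fe and 698, 660 and 753 FPKM in libraries labelled +Fe. BTS (AT3G18290, chromosome 3, 6273995 to 6280510), the ligase that restrains the cascade, fell with the genes it restrains: it had 36.3, 34.1 and 34.0 FPKM in libraries labelled -Fe and 418, 408 and 408 FPKM in libraries labelled +Fe. PYE (AT3G47640), a repressor of Fe transport genes that is itself induced by Fe shortage, had 17.4, 24.5 and 16.6 FPKM in libraries labelled -Fe and 116, 155 and 120 FPKM in libraries labelled +Fe. MYB72 (AT1G56160), a factor for the secretion of Fe-mobilising coumarins in roots, fell by 4.17 on the log2 scale (SE 0.09, adjusted p = 2.47e-11). None of the genes named in this paragraph overlapped between the labels, as was the case at 59.9% of all loci tested.

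The upstream factors of the cascade differed far less between the labels than the Ib factors. ILR3 (AT5G54680) had 99.7, 92.3 and 95.5 FPKM in libraries labelled -Fe and 99.2, 87.4 and 97.5 FPKM in libraries labelled +Fe, overlapping ranges with a difference of 0.02 (SE 0.07, adjusted p = 0.838). bHLH104 (AT4G14410), a partner of ILR3, differed by -0.10 (SE 0.14, adjusted p = 0.566). The other close relatives of ILR3 in the list differed by -0.64 and -0.51, in the direction of the Ib factors. bHLH121 (AT3G19860), which acts with them, fell by 0.76 (SE 0.07, adjusted p = 3.56e-06), with 18, 17.2 and 17.6 FPKM in libraries labelled -Fe and 31.9, 29.2 and 30.6 FPKM in libraries labelled +Fe. The lone rise in the list was FIT (AT2G28160, chromosome 2, 12004708 to 12006122), the factor that partners the Ib factors in root Fe uptake. Its level was low under both labels: 3.41, 3.14 and 3.29 FPKM in libraries labelled -Fe and 0.649, 1.32 and 0.686 FPKM in libraries labelled +Fe (log2 difference 1.20, SE 0.16, adjusted p = 7.20e-05).

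**Figure D2:**
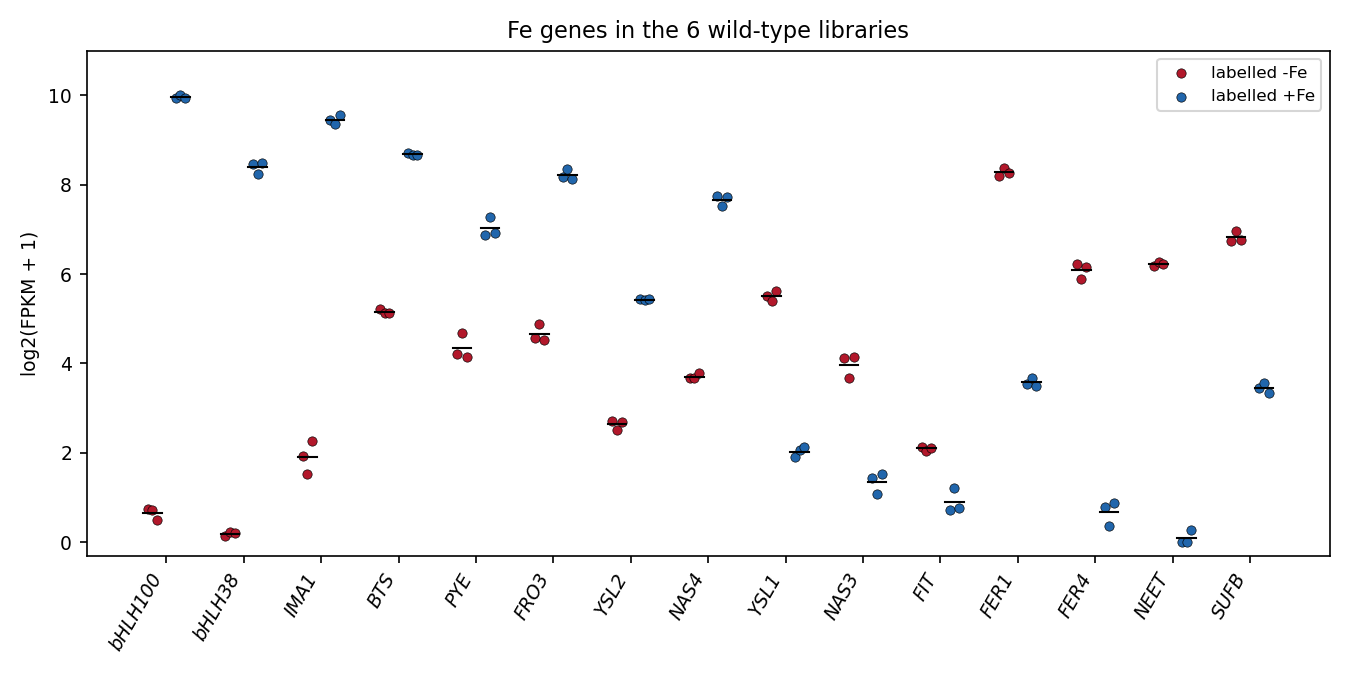
log2(FPKM + 1) of 15 Fe genes in each wild-type library, with libraries labelled -Fe on the left of each pair and libraries labelled +Fe on the right; points are libraries and bars are means of 3. Regulators other than FIT and the reductase gene FRO3 lie lower in libraries labelled -Fe, whereas FIT, ferritins, NEET and SUFB lie higher. YSL1 and NAS3 stand opposite to their relatives YSL2 and NAS4.

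Genes of Fe uptake and movement split within families. Of 22 tested, 13 were lower and 4 were higher in libraries labelled -Fe, and the median log2 difference was -0.65 (-0.18 with no filter on low values). The root reductase FRO2 (AT1G01580) had 0.95, 1.15 and 1.10 FPKM in libraries labelled -Fe and 20.7, 20.8 and 18.5 FPKM in libraries labelled +Fe. IRT1 (AT4G19690), the main root Fe transporter, was listed at 0 in all 3 libraries labelled -Fe but had 5.73, 5.36 and 6.19 FPKM in libraries labelled +Fe. FRO3 (AT1G23020), a mitochondrial reductase that is also expressed in leaves, was far higher than both: it had 22.8, 28.3 and 22.1 FPKM in libraries labelled -Fe and 289, 324 and 278 FPKM in libraries labelled +Fe. OPT3 (AT4G16370), which loads Fe into the phloem, fell by 3.22 (SE 0.18, adjusted p = 7.46e-08), with 43.2, 29.7 and 44.5 FPKM in libraries labelled -Fe and 403, 305 and 406 FPKM in libraries labelled +Fe. The vacuolar exporter NRAMP4 and the vacuolar nicotianamine transporter ZIF1 fell by 2.69 and 3.12.

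The nicotianamine synthases, which make the chelator that keeps Fe soluble in cells and phloem, moved in both directions. NAS4 (AT1G56430, chromosome 1, 21136944 to 21138087) had 11.7, 11.7 and 12.7 FPKM in libraries labelled -Fe and 215, 182 and 211 FPKM in libraries labelled +Fe, a difference of -3.97 (SE 0.10, adjusted p = 6.64e-11). NAS2 fell too, by 4.55, and was listed at 0 in 2 of the 3 libraries labelled -Fe. NAS1 fell by 0.75 (SE 0.07, adjusted p = 2.78e-06). NAS3 (AT1G09240, chromosome 1, 2984881 to 2986130), by contrast, had 16.3, 11.7 and 16.6 FPKM in libraries labelled -Fe and 1.71, 1.10 and 1.88 FPKM in libraries labelled +Fe, a rise of 2.62 (SE 0.16, adjusted p = 1.29e-07). The yellow stripe-like transporters, which carry metal-nicotianamine complexes, split in the same manner. YSL1 (AT4G24120, chromosome 4, 12524491 to 12527341) had 44.6, 41.5 and 47.9 FPKM in libraries labelled -Fe and 2.73, 3.15 and 3.37 FPKM in libraries labelled +Fe. YSL2 (AT5G24380, chromosome 5, 8323895 to 8329490) ran the other way, with 5.57, 4.70 and 5.45 FPKM in libraries labelled -Fe and 42.5, 41.6 and 42.3 FPKM in libraries labelled +Fe. YSL3 differed by only 0.09 (SE 0.08, adjusted p = 0.319), so the 3 related transporters showed a rise of 3.49, a fall of 2.79 and no call.

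All 6 Fe storage genes tested were higher in libraries labelled -Fe, with a median log2 difference of 2.24 (3.59 with 0.1 in place of 1 added to the FPKM). FER1 (AT5G01600) had 294, 333 and 307 FPKM in libraries labelled -Fe and 10.7, 11.8 and 10.3 FPKM in libraries labelled +Fe. FER4 (AT2G40300), a ferritin that also reaches mitochondria, had 73.6, 57.9 and 70.8 FPKM in libraries labelled -Fe and 0.731, 0.281 and 0.83 FPKM in libraries labelled +Fe. Of the leaf ferritins, FER4 thus had the larger difference (5.42, SE 0.16, adjusted p = 3.79e-10) and FER1 the higher level. FER3 rose by 2.30, with 91.8, 78.1 and 91.0 FPKM in libraries labelled -Fe and 17.6, 14.7 and 18.3 FPKM in libraries labelled +Fe. FER2 (AT3G11050), the seed ferritin, stayed under 2 FPKM in every library and its call (0.39, adjusted p = 0.0334) was lost without -Fe library 2 (0.28, adjusted p = 0.129), without +Fe library 1 (0.35, adjusted p = 0.0983), without +Fe library 3 (0.38, adjusted p = 0.0778) or without both libraries numbered 2 (0.32, adjusted p = 0.131).

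In Fe-S cluster assembly, 8 of 18 genes were higher and 1 was lower, and the list median was 0.22. Over all loci tested, 52.5% were called, 25.4% higher and 27.1% lower. In the list, a pair of members moved by far more than the rest. NEET (AT5G51720, chromosome 5, 21009592 to 21010389), an Fe-S protein tied to Fe and redox balance, had 71.4, 76.0 and 73.5 FPKM in libraries labelled -Fe, whereas in libraries labelled +Fe it was listed at 0 in 2 libraries and at 0.201 FPKM in the third. SUFB (AT4G04770, chromosome 4, 2427799 to 2429850), a scaffold subunit of the plastid assembly machinery, had 106, 124 and 108 FPKM in libraries labelled -Fe, against 9.14 to 10.8 FPKM in libraries labelled +Fe (log2 difference 3.37, SE 0.09, adjusted p = 1.25e-10). Its partners in the same complex rose far less, SUFC by 0.46 and SUFD, at a locus merged with a neighbour, by 0.19 (adjusted p = 0.0145). The call of SUFD was lost without the highest locus (0.12, adjusted p = 0.0897), without -Fe library 3 (0.16, adjusted p = 0.0609), without +Fe library 2 (0.17, adjusted p = 0.0529) or without both libraries numbered 2 (0.18, adjusted p = 0.0733). NFS1 (AT5G65720), the mitochondrial cysteine desulfurase, was the single lower member (-0.47, SE 0.08, adjusted p = 6.17e-04).

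Enzymes that remove superoxide and hydrogen peroxide were mostly higher: 13 of 18 rose and 1 fell, with a median of 0.78. The copper-zinc superoxide dismutases CSD1 and CSD2 and the Fe superoxide dismutase FSD1 rose together. The other copper-zinc form in the list differed by only 0.28, and the other Fe forms by 0.50 and 1.06. CSD2 (AT2G28190, chromosome 2, 12014498 to 12016569), the plastid copper-zinc enzyme, had 581, 408 and 559 FPKM in libraries labelled -Fe and 29.5, 21.9 and 28.0 FPKM in libraries labelled +Fe (4.23, SE 0.18, adjusted p = 7.41e-09). FSD1 (AT4G25100), an Fe enzyme of the plastid and cytosol, had 378, 340 and 418 FPKM in libraries labelled -Fe and 54.7, 44.7 and 54.1 FPKM in libraries labelled +Fe (2.87, SE 0.13, adjusted p = 8.73e-09). The cytosolic enzyme CSD1 and the copper chaperone CCS (AT1G12520), which loads CSD1 and CSD2, rose by 2.81 and 2.76.

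Among heme peroxidases and catalases, the members of a family again differed. The stromal ascorbate peroxidase SAPX (AT4G08390, chromosome 4, 5314905 to 5317456) had 78.0, 66.3 and 75.4 FPKM in libraries labelled -Fe and 1.95, 1.80 and 1.77 FPKM in libraries labelled +Fe, a rise of 4.71 (SE 0.09, adjusted p = 1.29e-11). Its thylakoid relative TAPX rose by 0.27 (SE 0.08, adjusted p = 0.0112). The cytosolic APX1 (AT1G07890) had 3451, 2978 and 3383 FPKM in libraries labelled -Fe, against 734, 654 and 748 FPKM in libraries labelled +Fe. CAT3 (AT1G20620) had 2285, 2303 and 2152 FPKM in libraries labelled -Fe and 242, 238 and 235 FPKM in libraries labelled +Fe (3.23, SE 0.07, adjusted p = 3.41e-11), which placed it above CAT2 under the first label and below it under the second. CAT2 (AT4G35090), the main leaf catalase, had 729, 733 and 689 FPKM in libraries labelled -Fe and 765, 764 and 751 FPKM in libraries labelled +Fe, a difference of -0.08 that was not called (adjusted p = 0.289) except under quantile normalization (-0.32).

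Genes of copper and zinc homeostasis leaned the other way, with 13 of 19 lower, 2 higher and a median of -0.82. The zinc-regulated transporters ZIP4 and ZIP9 differed by -2.74 and -2.54. ZIP4 (AT1G10970) had 5.37, 6.13 and 5.81 FPKM in libraries labelled -Fe and 44.7, 43.5 and 44.2 FPKM in libraries labelled +Fe. HMA2 (AT4G30110), which exports zinc into the xylem, fell by 2.63, and the copper transporter COPT2 and the copper chaperone CCH fell by 2.16 and 1.69. The called member that rose most was PAA2 (AT5G21930), the thylakoid copper pump (0.34, SE 0.07, adjusted p = 0.00198).

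Metallothioneins, small cysteine-rich proteins that bind copper and zinc, were examined as a list of 6 chosen after values had been seen; 4 were higher and 2 lower, with a median of 0.59 (0.32 under quantile normalization). The locus with the highest FPKM of all, which merges MT1A with its neighbour AT1G07590 (chromosome 1, 2336523 to 2339391), had 45003, 57278 and 34268 FPKM in libraries labelled -Fe, against 130038, 130852 and 132734 FPKM in libraries labelled +Fe. That was 4.90%, 6.18% and 3.83% of the FPKM sum in libraries labelled -Fe and 13.6%, 13.5% and 13.9% in libraries labelled +Fe. The log2 difference was -1.56 (SE 0.39, adjusted p = 0.00549), and the call was lost with no filter on low values (-1.56, adjusted p = 0.387) and under quantile normalization, which sets the top value equal in every library (0, adjusted p = 1.0). MT3 moved oppositely, with 3457, 3603 and 3107 FPKM in libraries labelled -Fe and 1561, 1628 and 1534 FPKM in libraries labelled +Fe (1.10, SE 0.11, adjusted p = 5.57e-06). MT1B (AT5G56795), a close copy of MT1A with which it may share reads, had 65.1, 171 and 126 FPKM in libraries labelled -Fe and 21.8 FPKM in +Fe library 1, and was listed at 0 in the other two (call lost without both libraries numbered 2, 4.26, adjusted p = 0.0932). Since a locus this abundant enters every total, the rescaling without it shifted the median over all loci to -0.08 and gave 4357 higher and 6011 lower calls.

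Nuclear genes of the photosynthetic apparatus rose broadly and moderately. Of 22 photosystem subunits, 20 were higher and none was lower (median 1.00), and likewise 12 of 15 antenna proteins (median 0.82). Calvin cycle genes rose less, with 16 of 20 higher and a median of 0.43, and 9 called with a median of 0.20 under quantile normalization. In that list 9 were called without -Fe library 1 and 10 without +Fe library 2. PSAN (AT5G64040), a photosystem I subunit on the lumen side, had 1105, 957 and 1246 FPKM in libraries labelled -Fe and 189, 171 and 195 FPKM in libraries labelled +Fe (2.56, SE 0.13, adjusted p = 2.28e-08). The minor antenna gene LHCB4.3 rose by 3.02. ENH1 (AT5G17170, chromosome 5, 5649193 to 5651158), a plastid rubredoxin-like Fe protein, went further: it had 180, 183 and 187 FPKM in libraries labelled -Fe and 4.84, 5.67 and 4.45 FPKM in libraries labelled +Fe (4.95, SE 0.10, adjusted p = 1.65e-11).

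In tetrapyrrole metabolism, which makes chlorophyll and heme, 26 of 32 genes were higher and 3 lower (median 0.66). HEMA1 (AT1G58290), the first committed enzyme, had 150, 153 and 144 FPKM in libraries labelled -Fe and 9.38, 9.22 and 9.11 FPKM in libraries labelled +Fe. NYC1 (AT4G13250, chromosome 4, 7684156 to 7686876), a reductase of chlorophyll b breakdown, moved in the same direction by 4.37 (SE 0.09, adjusted p = 2.47e-11), and the chlorophyll synthesis enzyme PORB by 2.15. The ferrochelatases, which insert Fe into heme, split. FC1 (AT5G26030) had 56.4, 44.7 and 57.5 FPKM in libraries labelled -Fe and 101, 96.6 and 101 FPKM in libraries labelled +Fe (-0.91, SE 0.10, adjusted p = 1.79e-05). FC2 (AT2G30390), the form tied to green tissue, had 62.5, 76.0 and 64.1 FPKM in libraries labelled -Fe and 46.8, 54.0 and 46.4 FPKM in libraries labelled +Fe (0.45, SE 0.10, adjusted p = 0.00276).

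Ferredoxins, the Fe-S electron carriers, split by isoform. FD2 (AT1G60950), the main leaf form, rose by 2.47 (SE 0.09, adjusted p = 1.85e-09), with 1916, 1884 and 1727 FPKM in libraries labelled -Fe and 333, 356 and 307 FPKM in libraries labelled +Fe. FD3 (AT2G27510), the root-type form, had 76.8, 66.1 and 65.8 FPKM in libraries labelled -Fe and 138, 131 and 145 FPKM in libraries labelled +Fe (-0.98, SE 0.09, adjusted p = 2.46e-06). RFNR2 (AT1G30510), a root-type reductase that passes electrons to ferredoxin, fell by 1.65. Of the 14 electron carriers tested, 9 were higher and 4 lower (median 0.64, or 0.40 under quantile normalization).

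Transcripts encoded in the organelles did not follow a common course. Of 95 chloroplast-encoded loci in the expression table, 66 were tested. Of these, 22 were higher and none lower (median log2 0.74), but 58 of the 66 were highest in -Fe library 1 of its group. The median level was 34.7, 8.97 and 10.8 FPKM in libraries labelled -Fe and 9.35, 8.18 and 8.08 FPKM in libraries labelled +Fe. Without -Fe library 1, 17 were higher, none was lower, and the median was 0.28; without +Fe library 3, 13 were called. Of 134 mitochondrion-encoded loci in the expression table, 66 passed the filter and were tested. Of these 66, none was higher and 43 were lower, with a median of -0.77. Their median level was 2.87, 1.41 and 1.46 FPKM in libraries labelled -Fe and 3.65, 3.43 and 3.17 FPKM in libraries labelled +Fe, and 46 of the 66 were also highest in -Fe library 1 of its group. The fall was as large without -Fe library 1, at 47 lower with a median of -0.95. Library 1 labelled -Fe also had the lowest relative depth (0.66), whose part in these values was not tested. The mitochondrial medians lie close to the filter limit of 1 FPKM. Loci under that limit in all 3 libraries labelled -Fe were tested only through their level in libraries labelled +Fe. Among them, 1 was listed at 0 in all 3 libraries labelled -Fe and had 1.443, 2.504 and 1.67 FPKM in libraries labelled +Fe. The filter itself favours such falls, so that part of the count of lower loci may come from it.

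**Figure D3:**
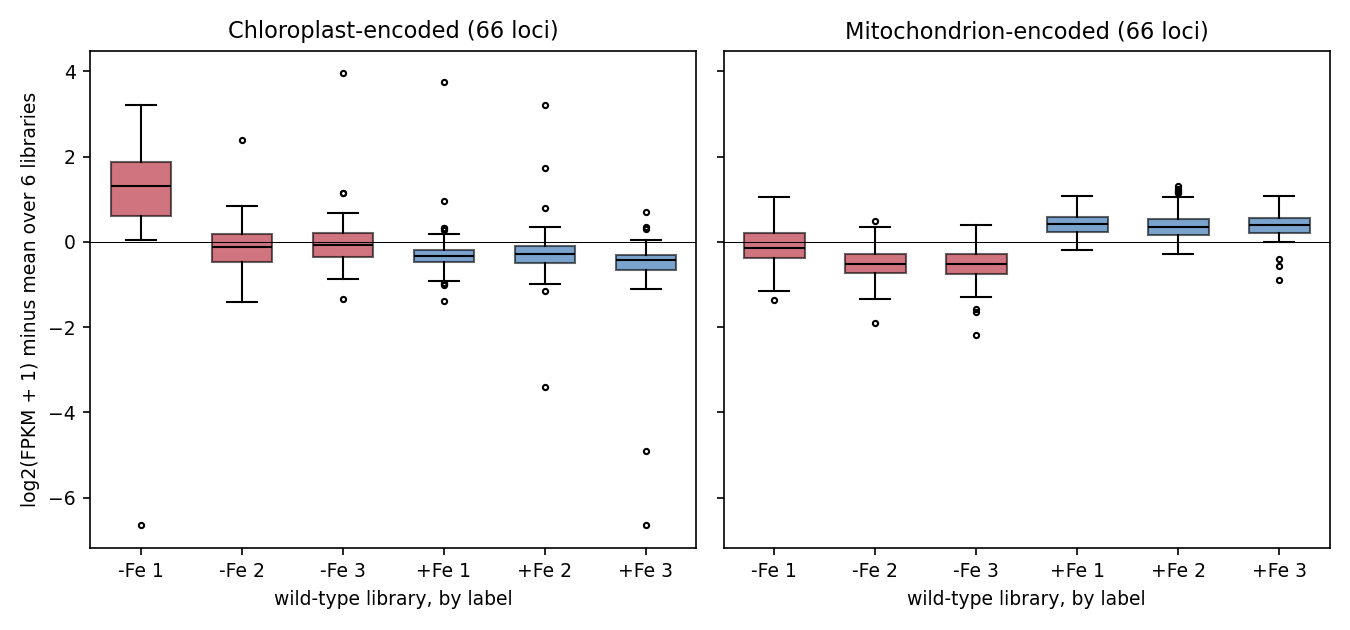
log2(FPKM + 1) of chloroplast-encoded (left) and mitochondrion-encoded (right) loci in each wild-type library, as the deviation from a locus's mean over the 6 libraries; boxes span the quartiles, lines are medians, whiskers reach 1.5 times the box and circles are loci beyond them. The chloroplast loci stand highest in -Fe library 1, with a median of 34.7 FPKM, whereas the mitochondrial loci stand lower in all 3 libraries labelled -Fe.

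Nuclear genes that plants raise when mitochondria are impaired fell as well. In a list of 15 such genes chosen after values had been seen, 13 were lower in libraries labelled -Fe, none was higher and the median was -2.39. AOX1A (AT3G22370), the alternative oxidase that bypasses part of the respiratory chain, had 115, 107 and 117 FPKM in libraries labelled -Fe and 489, 483 and 485 FPKM in libraries labelled +Fe (-2.09, SE 0.07, adjusted p = 1.33e-09). AT2G04050 (chromosome 2, 1337386 to 1339270), annotated as a MATE efflux protein, had 2.63, 3.57 and 2.24 FPKM in libraries labelled -Fe and 133, 148 and 129 FPKM in libraries labelled +Fe. AT2G21640 (chromosome 2, 9254459 to 9255625) had 15.1, 17.8 and 14.2 FPKM in libraries labelled -Fe and 371, 362 and 387 FPKM in libraries labelled +Fe. All 3 were separated by wide gaps between the labels. The glucosyltransferase gene UGT74E2 and the external NADH dehydrogenase gene NDB4 fell by 4.40 and 4.12, and NAC13 (AT1G32870), a factor of mitochondrial retrograde signalling, by 1.61. The falls of AOX1A, AT2G21640, UGT74E2, AT2G04050 and NAC13 were deeper in pad4; that of AT2G04050 was -6.21 in pad4 and -5.18 in the wild type (difference -1.02, adjusted p = 0.0014).

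Core hypoxia genes followed, again as a list chosen after values had been seen, with 7 of 11 lower, 2 higher and a median of -1.81 (-1.14 with no filter on low values). HB1 (AT2G16060, chromosome 2, 6982531 to 6983631), a non-symbiotic hemoglobin, had 9.02, 5.75 and 9.63 FPKM in libraries labelled -Fe and 224, 179 and 225 FPKM in libraries labelled +Fe (-4.54, SE 0.17, adjusted p = 2.39e-09). ERF71 (AT2G47520), an oxygen-regulated response factor, had 0.288, 0.391 and 0.114 FPKM in libraries labelled -Fe and 33.9, 35.5 and 36.8 FPKM in libraries labelled +Fe. The fermentation genes PDC1 and ADH1 fell by 3.43 and 1.14. RAP2.12 (AT1G53910), the oxygen-sensing factor upstream of these genes, was among the 2 that rose, with 118, 128 and 125 FPKM in libraries labelled -Fe and 42.7, 47.9 and 41.8 FPKM in libraries labelled +Fe (1.47, SE 0.07, adjusted p = 1.17e-08).

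Most genes of nitrate and sulfate assimilation fell: 14 of 20 were lower and 5 higher (median -0.98). LSU1 (AT3G49580, chromosome 3, 18375269 to 18375784) and SDI1 (AT5G48850, chromosome 5, 19805437 to 19807759), both known markers of sulfur shortage, led it. LSU1 had 16.8, 17.4 and 12 FPKM in libraries labelled -Fe and 388, 395 and 373 FPKM in libraries labelled +Fe (-4.57, SE 0.14, adjusted p = 4.72e-10). SDI1 had 4.58, 5.79 and 5.24 FPKM in libraries labelled -Fe and 112, 124 and 111 FPKM in libraries labelled +Fe. LSU2 and the sulfate-reduction enzyme APR3 fell by 2.57 and 1.38, and the nitrate reductase NIA1 by 1.58. SIR (AT5G04590), the sulfite reductase that carries heme and an Fe-S cluster, rose by 0.66 (SE 0.09, adjusted p = 6.69e-05), and the nitrate transporter NRT1.1 by 0.81. The difference between the genotypes was called for 15 of the 20, against 14.8% of all loci tested: the list median was -0.01 in pad4 and -0.98 in the wild type, and APR3 differed by 0.01 between the labels in pad4 and by -1.38 in the wild type (difference 1.40, adjusted p = 1.98e-05).

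Cell cycle and cell wall genes were mostly higher in libraries labelled -Fe. Of 22 cell cycle genes, 17 were higher and 1 was lower (median 0.94). CYCA1;1 (AT1G44110), an A-type cyclin, had 16.4, 18.4 and 15.6 FPKM in libraries labelled -Fe and 4.31, 4.39 and 4.66 FPKM in libraries labelled +Fe (1.70, SE 0.09, adjusted p = 2.85e-08). PCNA1 (AT1G07370), the sliding clamp of DNA polymerase, and the mitotic cyclin CYCB2;2 rose by 1.46 and 1.36. The lower member was CDKA;1 (AT3G48750), the main cell cycle kinase (-0.42, adjusted p = 0.0123), whose call was lost without -Fe library 1 (-0.32, adjusted p = 0.0561). Of 19 expansins and xyloglucan enzymes, which loosen and remodel the cell wall, 13 were higher and 3 lower (median 0.99). XTH9 (AT4G03210) had 125, 129 and 144 FPKM in libraries labelled -Fe and 38.2, 43.1 and 43.0 FPKM in libraries labelled +Fe, EXPA3 and XTH16 rose by 1.49 and 1.44, and EXLA1 fell by 1.24.

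DNA damage genes ran against that, as a list of 15 chosen after values had been seen, with 9 lower, 2 higher and a median of -0.91. SMR5 (AT1G07500, chromosome 1, 2304276 to 2305047), an inhibitor of cyclin-dependent kinases, had 0.678, 1.71 and 0.522 FPKM in libraries labelled -Fe and 57.1, 47.9 and 50.9 FPKM in libraries labelled +Fe (-4.79, SE 0.20, adjusted p = 4.84e-09). NAC044 (AT3G01600), a factor that arrests the cycle after damage, had 2.00, 1.40 and 1.25 FPKM in libraries labelled -Fe and 47.7, 52.1 and 46.4 FPKM in libraries labelled +Fe. GMI1 (AT5G24280), a gene of DNA repair, and TSO2 (AT3G27060), a subunit of ribonucleotide reductase (an Fe enzyme), fell by 2.88 and 1.57. SOG1 (AT1G25580), the master factor of the damage response, was higher by 0.30 (SE 0.06, adjusted p = 0.00167), and the checkpoint kinase WEE1 by 0.57.

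Heat shock genes rose in the wild type, and here the genotypes parted. Of 15 small heat shock proteins, which hold unfolded proteins in solution, 13 were higher in libraries labelled -Fe and none was lower (median 4.17). ATHSP22.0 (AT4G10250, chromosome 4, 6370343 to 6371291), a form of the endoplasmic reticulum, had 239, 274 and 247 FPKM in libraries labelled -Fe and 0.296, 0.316 and 0.288 FPKM in libraries labelled +Fe. The cytosolic HSP17.6II (AT5G12020) had 1815, 2068 and 1676 FPKM in libraries labelled -Fe and 85.6, 94.3 and 88.4 FPKM in libraries labelled +Fe. HSP18.2 and the plastid HSP21 rose by 6.98 and 6.52. In pad4, 1 member was higher and 13 were lower (median -1.41), and the difference between genotypes was called for all 15 tested, against 14.8% of all loci. For ATHSP22.0 the log2 difference was -0.69 in pad4 and 7.61 in the wild type (difference -8.30, adjusted p = 6.10e-11), and for HSP21 it was -1.20 in pad4 and 6.52 in the wild type (difference -7.71, adjusted p = 1.25e-09). Both lay near the floor in pad4. ATHSP22.0 had 0.354, 0.635 and 0.327 FPKM in pad4 libraries labelled -Fe and 1.36, 1.47 and 1.13 FPKM in those labelled +Fe. HSP21 had 0.087, 0 and 0.0817 FPKM against 1.15, 2.0 and 1.2 FPKM. HSP17.6II was well measured there, with 44.9, 38.2 and 48.1 FPKM in pad4 libraries labelled -Fe and 145, 140 and 126 FPKM in those labelled +Fe. Across all loci, 372 (1.89%) were called in both genotypes with opposite signs and a called difference, and 12 of the 15 small heat shock proteins were among them.

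The other heat-induced chaperones had 23 of 28 higher and 1 lower in the wild type (median 1.03), against 2 higher and 19 lower in pad4 (median -0.59). HSA32 (AT4G21320), which prolongs heat tolerance, had 153, 118 and 183 FPKM in libraries labelled -Fe and 4.21, 2.63 and 4.69 FPKM in libraries labelled +Fe (4.98, SE 0.19, adjusted p = 2.45e-09). Hsp70b (AT1G16030) had 247, 295 and 226 FPKM in libraries labelled -Fe and 11.4, 13.2 and 11 FPKM in libraries labelled +Fe, and GolS1 (AT2G47180), a galactinol synthase under heat shock control, rose by 3.67. APX2 (AT3G09640), a peroxidase gene known as a target of heat shock factors, had 33.0, 33.5 and 38.3 FPKM in libraries labelled -Fe and 0.587, 0.43 and 0.521 FPKM in libraries labelled +Fe. Its log2 difference was -0.76 in pad4 and 4.57 in the wild type (difference -5.32, adjusted p = 3.25e-08). In pad4 APX2 was low under both labels, at 0 to 0.364 FPKM in libraries labelled -Fe and 0.715 to 1.47 FPKM in those labelled +Fe. The lower member of the chaperone list was the mitochondrial mtHsc70-1 (AT4G37910), with 92.3, 84.3 and 88.6 FPKM in libraries labelled -Fe and 180, 174 and 180 FPKM in libraries labelled +Fe (adjusted p = 3.79e-07). HSC70-1 (AT5G02500), the main constitutive form, had 3388, 3553 and 2851 FPKM in libraries labelled -Fe and 3942, 4390 and 3880 FPKM in libraries labelled +Fe, and its difference of -0.32 was not called (adjusted p = 0.0608) but was called lower under quantile normalization (-0.88), without the highest locus (-0.39), with no variance trend and with a replicate block on the 6 libraries.

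The heat shock factors, some of which switch these genes on, did not share their course. Of 18 tested, in a list that also holds other regulators such as DREB2A, 4 were higher and 7 lower (median -0.18), against 25.4% and 27.1% of all loci. HSFA2 (AT2G26150, chromosome 2, 11135682 to 11137396), the main heat-induced activator, had 76.9, 80.8 and 72.4 FPKM in libraries labelled -Fe and 56.3, 69.4 and 63.1 FPKM in libraries labelled +Fe. This difference of 0.28 (SE 0.09, adjusted p = 0.0239) was no longer called without the highest locus (0.22, adjusted p = 0.0567) or without any of 4 libraries in turn: -Fe library 1 (0.28, adjusted p = 0.0583), -Fe library 2 (0.25, adjusted p = 0.072), +Fe library 1 (0.21, adjusted p = 0.106) and +Fe library 3 (0.29, adjusted p = 0.0548). HSFB1 rose by 1.28 (SE 0.09, adjusted p = 3.94e-07), and HSFA4A and HSFB2B fell by 1.91 and 1.80. DREB2A (AT5G05410), a drought and heat factor upstream of some of them, had 15.2, 23.2 and 15.5 FPKM in libraries labelled -Fe and 48.1, 67.3 and 47.1 FPKM in libraries labelled +Fe.

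Chaperones of the endoplasmic reticulum rose as a group: 13 of 15 were higher and 1 lower (median 1.36), and 11 of the 13 rose by at least 1 log2 unit. BIP2 (AT5G42020, chromosome 5, 16807483 to 16810646), an Hsp70 of this compartment, had 683, 711 and 620 FPKM in libraries labelled -Fe and 176, 186 and 185 FPKM in libraries labelled +Fe (1.87, SE 0.08, adjusted p = 7.24e-09). HSP90.7 (AT4G24190) had 820, 1047 and 817 FPKM in libraries labelled -Fe and 224, 261 and 221 FPKM in libraries labelled +Fe, and calnexin CNX1 rose by 1.74. The lower member was bZIP60 (AT1G42990), a factor that induces these chaperones when proteins misfold, with 75.5, 72.4 and 82.9 FPKM in libraries labelled -Fe and 161, 167 and 163 FPKM in libraries labelled +Fe (-1.08, SE 0.08, adjusted p = 8.14e-07). The difference between genotypes was called for 13 of the 15, against 14.8% of all loci tested. BIP2 differed by 0.04 between the labels in pad4 and by 1.87 in the wild type (difference -1.83, adjusted p = 1.63e-06), whereas bZIP60 fell by 1.29 in pad4 and by 1.08 in the wild type (difference -0.21, adjusted p = 0.265).

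**Figure D4:**
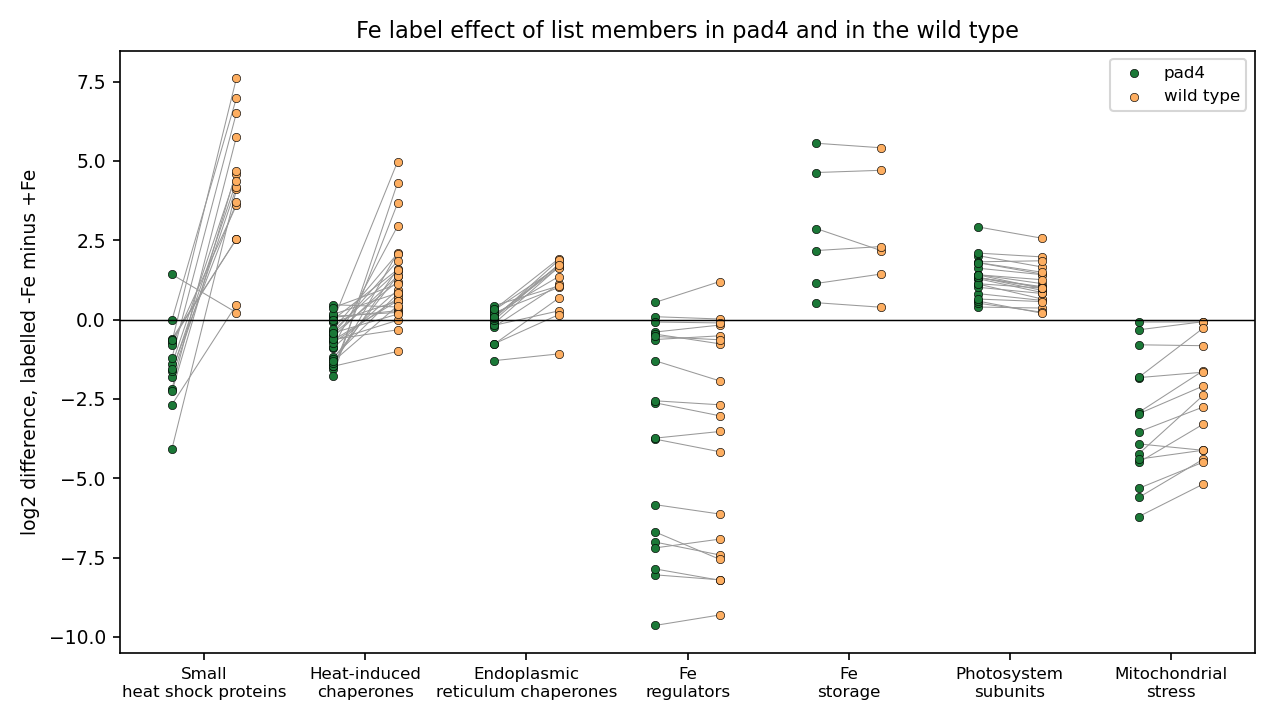
log2 difference between libraries labelled -Fe and +Fe for each member of 7 gene lists, in pad4 (left of each pair) and in the wild type (right), with a line joining the 2 values of a gene. Small heat shock proteins have medians of -1.41 in pad4 and 4.17 in the wild type, while Fe regulators have medians of -2.62 in pad4 and -3.03 in the wild type.

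The share of Fe genes with a called difference between the genotypes varied by list, against 14.8% of all loci tested. Of the 19 Fe regulators, 1 had a called difference, IMA1, which fell by 6.70 in pad4 and by 7.56 in the wild type (difference 0.86, adjusted p = 0.0483). Of the 22 genes of Fe uptake and movement, 5 had a called difference: NAS1, NAS4, FRD3, FRO6 and FRO7. FRD3, a citrate exporter, fell by 2.03 in pad4 and by 2.48 in the wild type (difference 0.45, adjusted p = 0.0186). The ferric reductase gene FRO6 had a log2 difference of 0.40 in pad4 and -0.41 in the wild type (difference 0.81, adjusted p = 0.00258). FRO7, the chloroplast ferric reductase, rose by 0.69 in pad4 and differed by 0.02 in the wild type (difference 0.67, adjusted p = 9.09e-04). Of the 6 Fe storage genes, 1 had a called difference, the vacuolar transporter family gene VTL5 (2.87 in pad4 and 2.18 in the wild type, difference 0.69, adjusted p = 0.00955), and the list medians were 2.52 in pad4 and 2.24 in the wild type. For bHLH100 the effect was -9.64 in pad4 and -9.31 in the wild type, a difference of -0.33 that was not called (adjusted p = 0.22), which does not show that the effects were alike.

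Early stress regulators, the factors that respond within minutes to touch, wounding or elicitors, were lower in libraries labelled -Fe, with 22 of 27 lower, none higher and a median of -1.38. ERF6 (AT4G17490) had 10.7, 11.3 and 9.12 FPKM in libraries labelled -Fe and 101, 108 and 102 FPKM in libraries labelled +Fe (-3.20, SE 0.10, adjusted p = 6.69e-10). The zinc finger genes ZAT12 and ZAT11 fell by 3.13 and 2.82. Glutathione S-transferases, which conjugate toxic compounds, fell more often than they rose (22 of 38 lower, 5 higher, median -0.41). GSTU24 (AT1G17170) had 4.14, 3.88 and 4.79 FPKM in libraries labelled -Fe and 73.7, 78.8 and 73.1 FPKM in libraries labelled +Fe, GSTF12 (AT5G17220), which moves anthocyanin precursors to the vacuole, fell by 3.23, and GSTF9 rose by 1.01.

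Genes of the main defence hormones moved apart. Of 28 salicylic acid genes, 18 were higher and 4 lower (median 0.44). WRKY54 (AT2G40750) had 18, 23.3 and 18.5 FPKM in libraries labelled -Fe and 3.34, 3.86 and 3.30 FPKM in libraries labelled +Fe (2.21, SE 0.14, adjusted p = 1.52e-07). DLO1 (AT4G10500), which degrades salicylic acid, and its classical target PR1 rose by 1.90 and 1.78, and UGT76B1 (AT3G11340), which conjugates salicylic and isoleucic acid, fell by 1.04. For PR1 (AT2G14610), the log2 difference was -0.47 in pad4 and 1.78 in the wild type (difference -2.24, adjusted p = 2.18e-05). A difference between the genotypes was called for 16 of the 28 genes, against 14.8% of all loci tested. Of 21 genes of jasmonate synthesis and repression, 18 were lower and 2 higher (median -0.70); VSP1 (AT5G24780), a jasmonate-induced storage protein, fell by 2.17 and the cyclase AOC4 rose by 0.72. The 7 defence genes induced by jasmonate with ethylene were split, with 2 higher and 4 lower. CHIB (AT3G12500), a chitinase, had 17.9, 18 and 16.8 FPKM in libraries labelled -Fe and 0.986, 1.26 and 1.14 FPKM in libraries labelled +Fe, whereas the defensin PDF1.2 (AT5G44420) had 35.3, 20.2 and 40.0 FPKM in libraries labelled -Fe and 119, 69.4 and 116 FPKM in libraries labelled +Fe. PDF1.2 turned round in pad4, with a log2 difference of 3.99 in pad4 and -1.66 in the wild type (difference 5.65, adjusted p = 2.00e-05).

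In secondary metabolism, 19 of 24 flavonoid and anthocyanin genes were lower and 3 higher (median -0.97). LDOX (AT4G22880), which makes anthocyanidins, had 2.97, 3.90 and 3.52 FPKM in libraries labelled -Fe and 32.9, 41.7 and 31.6 FPKM in libraries labelled +Fe, and DFR (AT5G42800), the step before it, fell by 3.02. Glucosinolate genes were spread over both directions, with 10 of 31 higher and 8 lower, near the shares of 25.4% and 27.1% over all loci. ESM1 (AT3G14210), which favours the breakdown of glucosinolates to isothiocyanates, had 656, 622 and 664 FPKM in libraries labelled -Fe and 150, 138 and 150 FPKM in libraries labelled +Fe, and CYP79B3, of indole glucosinolate synthesis, fell by 1.40.

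Of 14 phosphate starvation genes, 12 were higher and none lower (median 0.82), among them the phosphate sensor SPX1 at 2.08 (SE 0.11, adjusted p = 3.02e-08). Sugar starvation genes were mixed, with 8 of 24 higher and 6 lower, near the shares of 25.4% and 27.1% over all loci. Their median was -0.01, and its sign turned under 5 alternatives. In that list ASN1 (AT3G47340), an asparagine synthetase of carbon-starved leaves, had 25.4, 16.9 and 24.1 FPKM in libraries labelled -Fe and 0.456, 0.302 and 0.25 FPKM in libraries labelled +Fe (4.10, SE 0.17, adjusted p = 4.56e-09). BCAT2 (AT1G10070), a branched-chain aminotransferase, rose by 2.46 and the glucosidase DIN2 fell by 1.23. Clock genes were lower in 11 of 17 cases and higher in 1 (median -0.55), led by PRR9 (AT2G46790), a repressor of the morning loop, which fell by 1.94 (SE 0.09, adjusted p = 1.56e-08).

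Families taken by symbol share members with some of the lists above, so that they are no separate background to them. Over all loci tested, 25.4% were higher and 27.1% lower. WRKY factors had 8 of 49 higher and 22 lower (median -0.18), NAC factors 10 of 49 higher and 14 lower (median -0.15), and MYB factors 19 of 65 higher and 23 lower (median -0.09, of turned sign with no filter on low values). Ethylene response factors had 2 of 18 higher and 11 lower (median -0.69), and the factors with a bHLH number as their symbol 1 of 11 higher and 7 lower (median -0.64). Cysteine-rich receptor kinases had 13 of 34 higher and 13 lower (median -0.12), and cytosolic ribosomal proteins 16 of 41 higher and 6 lower (median 0.20, or 0.12 without -Fe library 2).

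**Figure D5:**
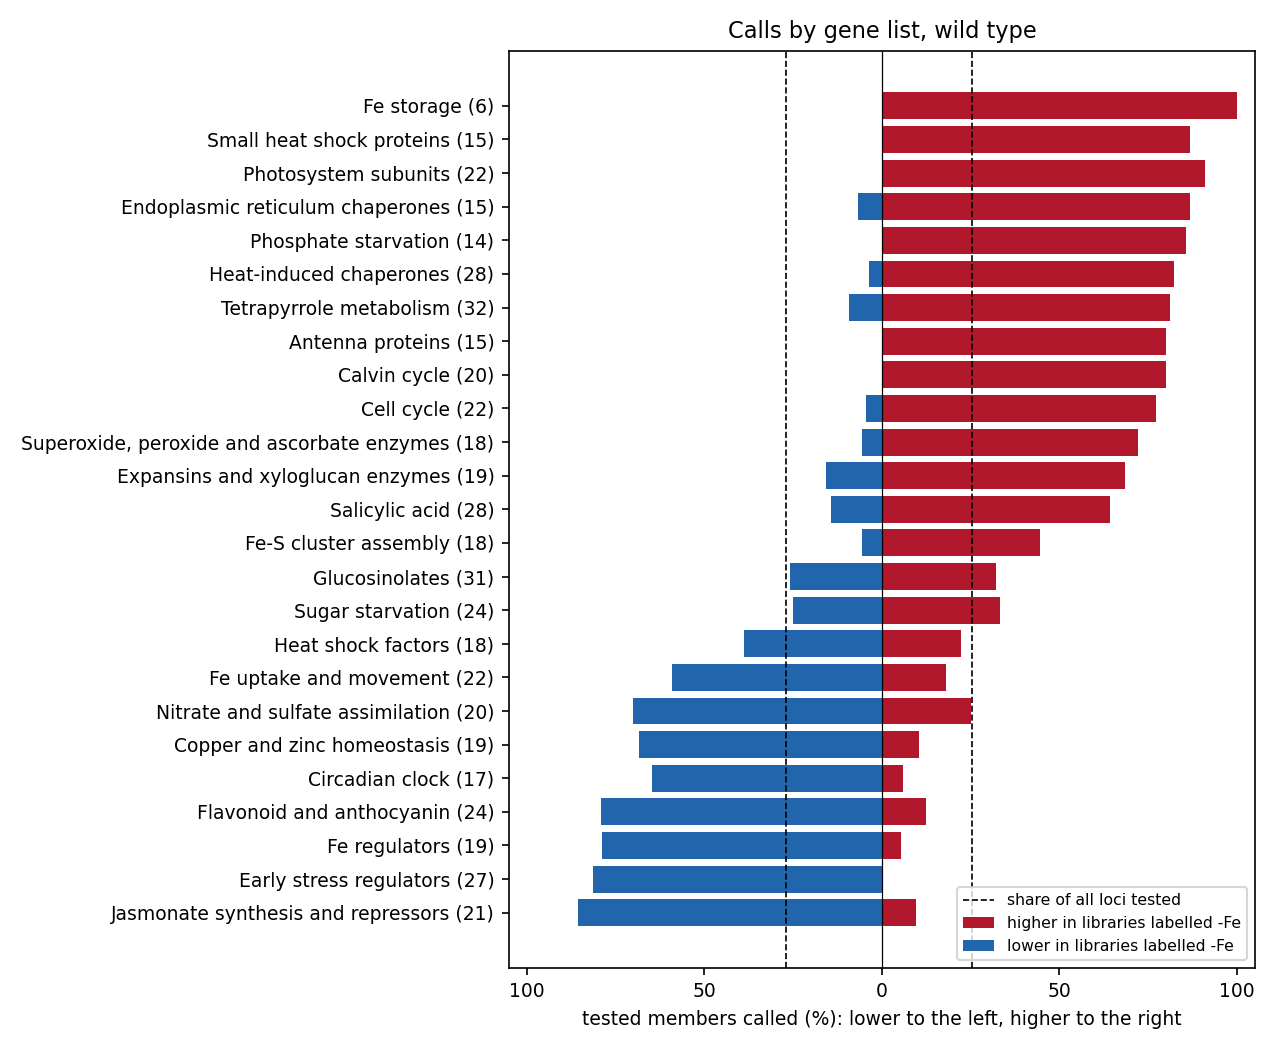
Share of tested members (number in brackets) of 25 gene lists called higher (right) or lower (left) in wild-type libraries labelled -Fe; dashed lines are the shares over all 19642 loci, 25.4% higher and 27.1% lower. Fe storage reaches 6 of 6 higher, and jasmonate genes 18 of 21 lower.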

How the data were processed

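The authors deposited FPKM per locus for 12 libraries. The submitters' processing notes name TAIR10 as the build; which aligner made the values is not given in the sources used here. The authors' deposited table of the same comparison holds a log2 fold, a p-value and a q-value per locus, per the file headers, and served only for the overlap given; their test score was not used. More than 1 gene is merged at 354 loci, 630 loci carry no gene ID, and 26694 of 27366 gene IDs matched RefSeq.

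Values of loci with 1 FPKM or more in at least 3 wild-type libraries were put on a log2(FPKM + 1) scale and fitted in R 4.3.3 by limma 3.58.1, with a variance trend and 1 mean for each of the 4 groups (8 residual and 3.14 prior degrees of freedom). Log2 differences are libraries labelled -Fe minus libraries labelled +Fe, and low genes change by more than these values say, because of the added 1. An FPKM of 0 can be a failed estimate, since 32 tested loci stood at 0 in 1 library and at 5 or more in another of its wild-type group. On simulated data, 30 of 67 loci changed by 0.5, 60 of 67 changed by 1 and 66 of 66 changed by 2 log2 units were recovered. Among the 19642 loci simulated, 13 unchanged ones were called. The simulated noise was normal and independent between loci and libraries, and no other locus had a label effect. In the data 52.5% of loci were called and libraries of the same number deviated together, so these rates may not carry over.

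The comparison, the 29 gene lists and the rule for named genes were chosen with earlier results of these data known, and 4 more lists after values were seen; 8 families come from symbols and 2 sets from the organelle genomes. The rule takes the 15 largest rises and 15 largest falls among called genes with a symbol, no overlap between labels and a mean of 5 FPKM or more under the higher label, from each list 3 or fewer called members by size of difference and its largest opposite member, and PAD4, IRT1, FRO2, FIT, the Ib factors, BTS, IMA1 and FER1. Of the 137 genes it names, 43 are left out. A further 57 genes in the text lie outside it and were chosen after their values were seen: PYE, ILR3, bHLH104, bHLH121, OPT3, NRAMP4, ZIF1, YSL2, YSL3, NAS1, NAS3, FER2, FSD1, CSD1, CCS, CAT2, CAT3, TAPX, APX1, SUFC, SUFD, MT1A, MT3, COPT2, CCH, FC2, FD3, APR3, SIR, NIA1, AOX1A, AT2G21640, AT2G04050, NAC13, PDC1, ADH1, RAP2.12, SMR5, GMI1, TSO2, WEE1, SOG1, HSFA2, HSC70-1, FRD3, FRO6, FRO7, VTL5, CASP4, WOX5 and the 7 loci given by number in the paragraphs on the largest differences. The root markers PRP3, RSL4, EXPA7, SCR and SHR are named outside the rule as well and enter no count of named genes.

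Deviations of same-numbered wild-type libraries from their group means correlated at 0.14, 0.56 and 0.21, all over 0.1, which paired them by the criterion set, although libraries 1 and 3 also correlated across numbers (0.30 and 0.25). Alternatives were other filters, an added 0.1, quantile and median-ratio scaling, scaling without the highest locus, no variance trend, the wild-type libraries alone, the replicate block, and leaving out libraries or merged loci.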

Additional observations from a re-analysis of the deposited data

Results flagged for a closer look

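For 63 of the 151 genes named (41.7%), the effect of the Fe label differed between pad4 and the wild type by the limma interaction test, against 14.8% of all loci. The genes were not drawn at random, so the 2 shares are given side by side only. Values below subtract the wild-type log2 effect from the pad4 effect.

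Heat and protein folding genes had the largest negative differences. They were -8.30 for ATHSP22.0, -7.71 for HSP21, -6.99 for HSP18.2, -6.08 for Hsp70b, -5.98 for HSP17.6II, -5.32 for APX2, -5.23 for GolS1 and -5.01 for HSA32. Smaller ones were -1.86 for HSFB1, -1.83 for BIP2, -1.76 for CNX1, -1.60 for HSP90.7, -0.47 for mtHsc70-1 and -0.46 for HSFA2, while HSFB2B had 1.46.

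Among metal and redox genes, the differences were 0.86 for IMA1, 0.77 for NAS1, 0.48 for NAS4, 0.45 for FRD3, 0.81 for FRO6, 0.67 for FRO7, 0.69 for VTL5, 0.58 for CAT3, 0.77 for COPT2, 0.48 for CCH, 0.34 for PAA2 and 1.90 for AT4G36700. FC1, FD3 and RFNR2 differed by 0.72, 0.50 and 0.61.

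In sulfur and nitrogen assimilation every named difference was positive, at 0.65 for LSU1, 1.33 for LSU2, 0.93 for SDI1, 1.40 for APR3, 0.89 for SIR, 0.54 for NIA1 and 0.52 for NRT1.1. Those of mitochondrial stress genes were negative, at -0.87 for AOX1A, -0.83 for AT2G21640, -1.21 for UGT74E2, -1.02 for AT2G04050 and -1.31 for NAC13. The hypoxia genes HB1, PDC1 and ADH1 had 1.92, 0.78 and 0.65. NAC044, CYCA1;1 and XTH16 had -0.55, -0.42 and 0.40.

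Defence genes differed by -2.24 for PR1, -1.85 for DLO1, -1.10 for UGT76B1, -0.95 for WRKY54, 1.01 for CHIB and 5.65 for PDF1.2. The early regulators ERF6, ZAT11 and ZAT12 had 1.91, 1.84 and 0.73. The others were -0.35 for ESM1, 0.68 for DFR, -1.01 for ASN1, 1.53 for BCAT2, -1.61 for DIN2 and 0.48 for PRR9.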

How the results depend on the processing

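The counts of called loci stayed within 1.5 times under every alternative run: 9164 to 13198 in the wild type, 2303 to 3070 at 1 log2 unit or more and 2014 to 3215 for the difference between genotypes, and no call changed sign. With the replicate block the calls were 10380 in 12 libraries and 13198 in the wild-type libraries alone; among named genes the block changed the call of HSC70-1 and no other. Of 151 named genes, 142 kept their call in every alternative, and the 9 others are given in the results with their values. Uncalled differences that changed sign were the log2 difference of ILR3 (-0.0459 without the highest locus, -0.0105 without both libraries numbered 2, and -0.0371 to 0.0532 over single libraries left out) the log2 difference of FRO7 (-0.0406 without the highest locus and -0.00345 to 0.0387 over single libraries left out) and the log2 difference of bHLH104 (-0.226 to 0.0195 over single libraries left out), and MT1A gave 0.0 under quantile normalization. Of the list medians, 6 of 774 changed sign, 5 for sugar starvation and 1 for MYB factors. The seed list rested on 3 members, and its median of -2.18 became -0.01 with the filter over all 12 libraries. Depth is known only in relative terms, so no counting error is given.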
